A study of Rattus norvegicus with 12 samples.

Results

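The genes described here are the nuclear import, export and pore genes of rat mesenteric lymph nodes (MLN). They were chosen by symbol, as every gene named Ipo, Kpna, Kpnb, Xpo, Tnpo or Nup with a number, together with Ran, Ranbp1, Ranbp2, Rangap1, Rcc1, Cse1l and Tpr. The rule found 49 genes among the 14217 with a single symbol on the array, and 79 probe sets among the 31042 tested. A probe set is the group of short probes that reads a single transcript, and for each gene the brightest of its probe sets stood for it in counts. MLN were taken at weaning from Wistar pups of 4 dietary groups, with 3 pups chosen at random and 1 array per pup in each group. Conjugated linoleic acid (CLA) was an 80:20 mixture of the c9,t11 and t10,c12 isomers. The dams of group A ate a 1% CLA diet for 2 weeks of gestation and for the 3 weeks of suckling, so that their pups took it in milk while suckling, a total period of 5 weeks. The dams of group B ate that diet in gestation only, and their pups were given CLA daily by oral gavage while suckling, again 5 weeks in all. Pups of group C came from dams on the standard diet and had CLA by gavage for 3 weeks. Group D, the reference, had the standard diet and no CLA. The sources used here do not give a gavage without CLA for groups A and D, so route and CLA cannot be told apart between A and the gavaged groups. Litters are not given either, and p-values measure the spread between these arrays only.

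Proteins and RNA pass between nucleus and cytoplasm through nuclear pore complexes, which are built from many copies of the nucleoporins encoded by the Nup genes and Tpr. Importins and transportins carry cargo inwards and exportins carry it outwards, and the small GTPase Ran sets the direction, because Rcc1 loads it with GTP in the nucleus and Rangap1 makes it hydrolyse that GTP outside. In lymphocytes this traffic brings transcription factors to the nucleus after activation and takes signalling proteins and ribosomal subunits out.

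The question was how the level of these genes differed with the period and route of CLA. Levels are given as log2 signal after quantile normalization, and they can be compared between arrays but not between probe sets. All 49 brightest probe sets lay above background in all 12 arrays. T cell and B cell genes marked the tissue as lymph node: Lck, a T cell kinase, had a log2 signal of 10.76 to 11.38, and Cd79b, part of the B cell receptor, of 8.75 to 9.64. In such whole tissue, fewer cells of a type and less RNA per cell cannot be told apart.

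Some properties of the arrays moved with the groups. D replicate 3 correlated better with the arrays of B and C (mean r over all probe sets 0.931 and 0.930) than with the other D arrays (0.896). Its 8 smooth muscle markers summed to an intensity of 1016, against 6979 and 7071 in D replicates 1 and 2, 1614 to 1773 in A, 901 to 1219 in B and 808 to 995 in C, and 3 of the 8 were lower in A than in D (6 without D replicate 3). Neutrophil markers summed to 356 to 507 in A, 140 to 173 in B, 158 to 324 in C and 128 to 133 in D, with 4 of 6 higher in A than in D (3 without D replicate 3), while Camp, a granule peptide, was above background in none of the A arrays. Plasma cell markers summed to 2146 to 2309 in A, 1291 to 1595 in B, 1306 to 1932 in C and 1200 to 1802 in D, with 3 of 6 higher in A than in D (2 higher and 1 lower without D replicate 3). B cell markers summed to 3341 to 3857 in A, 4205 to 4528 in B, 4041 to 4638 in C and 2815 to 3787 in D. Of these 7 markers 3 were higher in A than in D (Blk at a log2 difference of 1.02, Cd37 at 0.89 and Fcer2 at 0.78) and Ms4a1 was lower at -0.34, a call lost without D replicate 3. Cr2 was at -1.01 without passing (adjusted p 0.0539 in limma). Against B the list was split as well, with 2 lower in A (Cr2 at -2.09 and Ms4a1 at -0.84) and 3 higher. T cell markers summed to 8486 to 10695 in A and 7448 to 9258 elsewhere, with 1 of 11 higher and 1 lower. Adipocyte markers summed to 3598 to 4715 in A, 4576 to 6921 in B, 4172 to 5477 in C and 4515 to 6399 in D, with 2 of 6 lower in A than in D (0 without D replicate 3), while Lep was above background in none of the A and D arrays. Beside these marker counts, 12.0% of all genes were lower in A than in D and 16.0% higher. Without D replicate 3 those shares were 13.4% and 14.6%. The ratio of 3′ to 5′ signal of a control gene grows as RNA is degraded. For hexokinase it was 2.84 to 4.96 in A, 1.62 to 3.24 in B, 1.82 to 2.62 in C and 1.84 to 2.53 in D. For Gapdh it was 1.21 to 1.53 in A, 1.1 to 1.12 in B, 1.1 to 1.28 in C and 1.06 to 1.22 in D. For beta-actin it was 1.37 to 1.79 in A, 1.44 to 1.79 in B, 1.6 to 1.74 in C and 1.3 to 1.91 in D. All groups overlapped for beta-actin. The part of cell composition in the results below was not tested, and results without D replicate 3 and with the hexokinase ratio in the fit are given beside them.

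Group A stood apart from the other 3 groups. Against group D, 22 of the 49 genes were lower in A (44.9%) and 8 were higher (16.3%), at an adjusted p under 0.05 in limma. Over all 14217 genes the shares were 12.0% lower and 16.0% higher, so the share of lower genes was above the background and the share of higher genes was close to it. The median log2 difference was -0.43 over the 49 genes and 0.15 over all genes, and the 49 ranged from -1.85 to 0.68. A difference of 2-fold or more was passed by 8 of the lower genes and 0 of the higher ones. Against group B, 24 genes were lower in A and 11 were higher, where all genes gave 15.0% lower and 26.9% higher, and the median was -0.42 against 0.30 over all genes. These comparisons share the arrays of group A. All 22 lower and all 8 higher genes against D were called in the same direction against B.

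Without normalization between arrays the split against D became 17 lower and 0 higher, with all genes at 9.64% and 1.84%. The 8 genes that were higher after normalization kept log2 differences of 0.42 (Ipo4) to 0.63 (Rangap1), with adjusted p of 0.142 to 0.373. Against B the split became 6 lower and 11 higher, with all genes at 6.06% and 31.7%. The median of all genes was then -0.02 against D and 0.63 against B. Relative to that median the 49 genes lay 0.59 lower against D under either choice, as the median log2 difference was -0.59 after subtraction, and -0.72 or -0.65 against B. Without D replicate 3, 22 genes were still lower in A than in D and 5 were higher, with all genes at 13.4% and 14.6%. Kpna4 and Tnpo3 were no longer among the lower genes, and Ran and Nup107 joined them. With the hexokinase ratio in the fit, 17 genes were lower and 3 higher against D, with all genes at 6.30% and 5.36%. Against B it gave 21 lower and 7 higher, with all genes at 12.0% and 20.1%. The part of RNA quality beyond that fit was not tested.

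**Figure D1:**
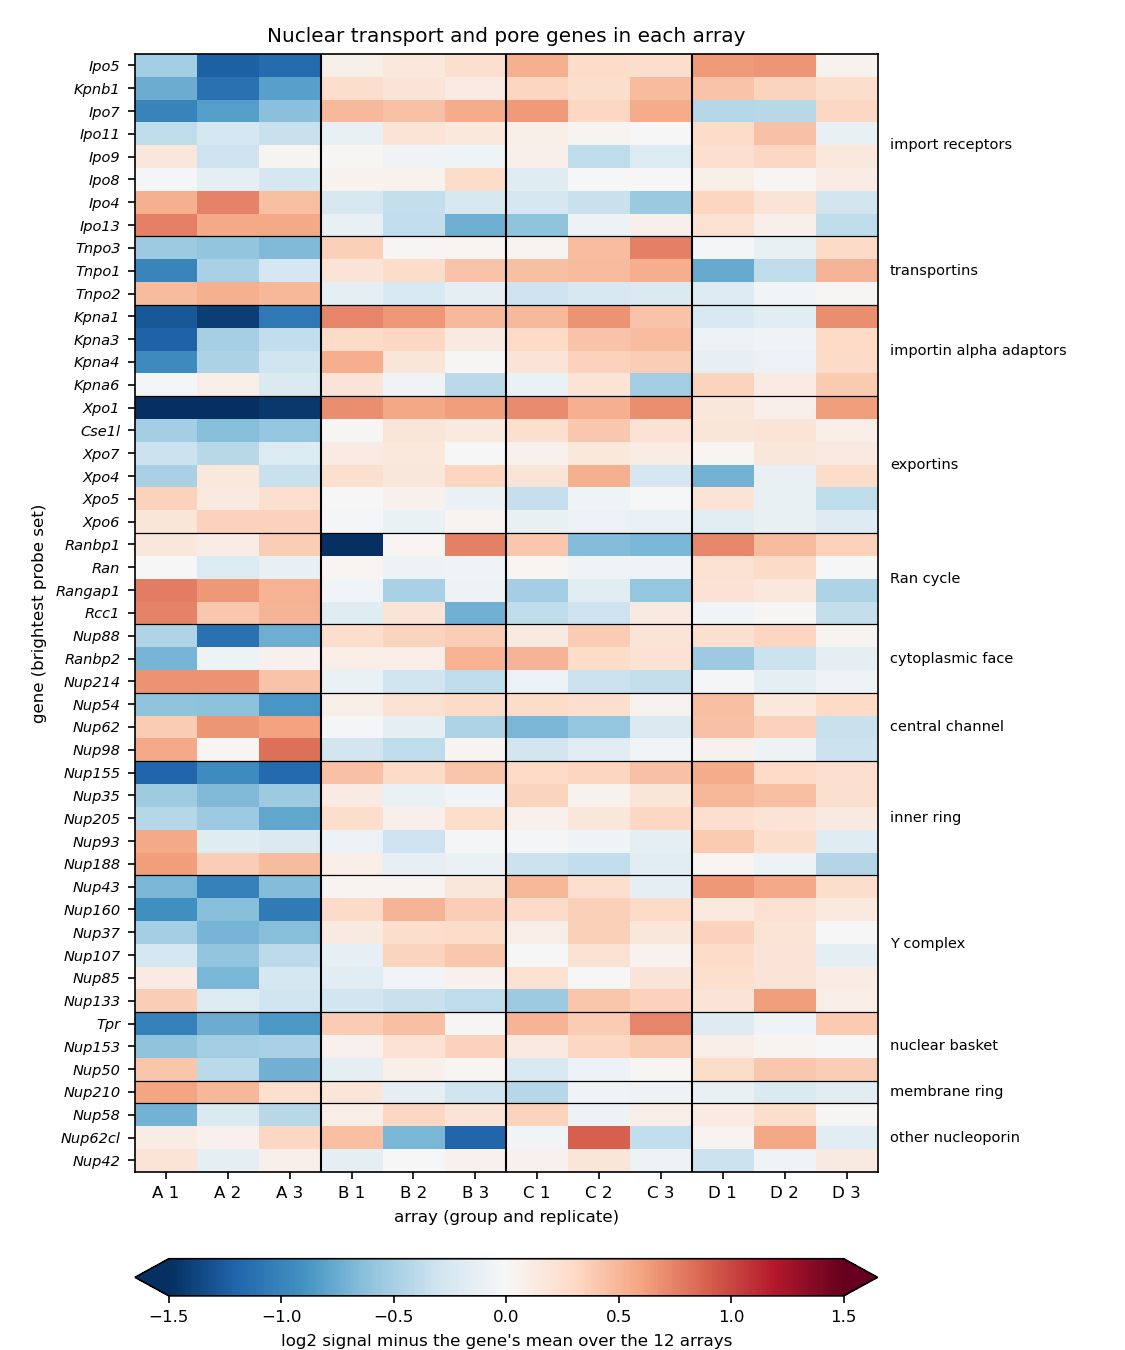
Each row is 1 of the 49 genes at its brightest probe set, each column 1 array, and the colour is the quantile-normalized log2 signal minus the mean of that gene over the 12 arrays, blue for lower and red for higher. The A columns are blue for most import receptors, importin alpha adaptors and pore genes and red for a smaller set, while D replicate 3 resembles the B and C columns in Kpna1, Ipo7 and Tnpo1.

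In the plot of every gene in every array, the pattern in A was shared by its 3 replicates. In 23 genes all A arrays lay below the other 9, and in 9 genes all A arrays lay above them. The shares of all genes set apart in this way were not counted, so these numbers are not read as particular to the 49 genes. The median SD of the 49 genes within a group was 0.16 in A, 0.12 in B, 0.13 in C and 0.20 in D.

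**Figure D2:**
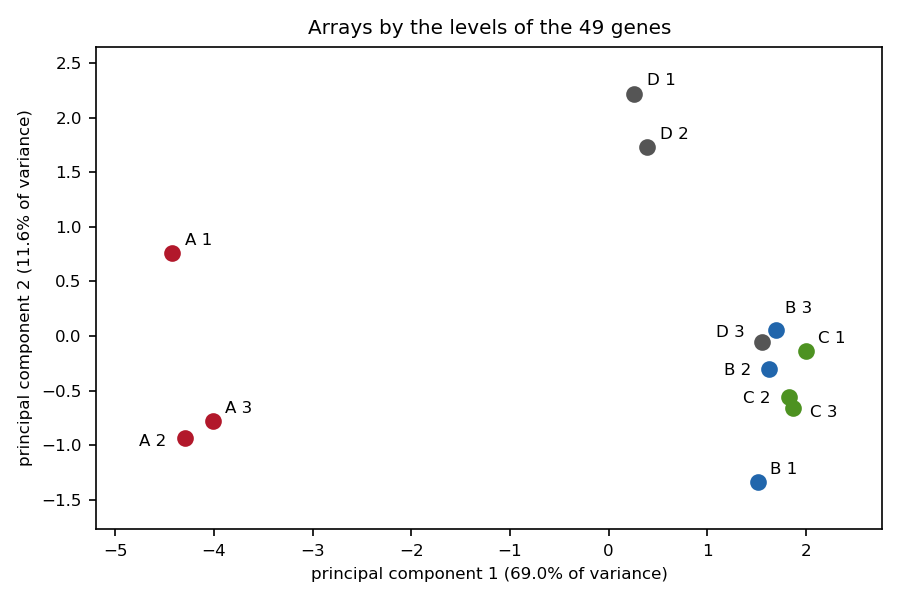
Principal components of the 49 genes, with 1 point per array coloured by group; the horizontal axis holds 69.0% of the variance and the vertical axis 11.6%. The A arrays lie at -4.42 to -4.01 on the first component, D replicates 1 and 2 at 0.26 and 0.39, and D replicate 3 at 1.55 among the B and C arrays (1.51 to 2.00).

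The plot of principal components, which places arrays by these genes alone, separated A from all other arrays on the first component. D replicates 1 and 2 were set off on the second component, at 2.22 and 1.73, and D replicate 3 was not, at -0.05. In 34 of the 49 genes D replicate 3 lay closer to the mean of B and C than to the mean of the other D arrays. The share over all genes was not counted, and D replicate 3 also correlated better with B and C over all probe sets. The label of that array was kept.

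Promoter sequence is shown for the genes with the largest falls in A against D, Xpo1 and Nup155, and for the higher genes of smallest adjusted p, Tnpo2 and Xpo6, so that the promoters of genes that moved in opposite directions stand side by side. Each is the 120 bases before the annotated start of the gene in RefSeq (GRCr8), 5′ to 3′ on the strand of the gene. The Xpo1 stretch is chr14:101434330-101434449 on the plus strand, Nup155 is chr2:58928482-58928601 on the plus strand, Tnpo2 is chr19:40024188-40024307 on the minus strand, and Xpo6 is chr1:190192139-190192258 on the minus strand. Capitals mark 5 motifs on either strand, each searched on its own so that matches may overlap. They are the CCAAT box (CCAAT), the GC box bound by Sp factors (GGGCGG), the core of many ETS factor sites (CGGAAG), the core of cyclic AMP response elements (TGACG) and the E-box (CACGTG).
Xpo1: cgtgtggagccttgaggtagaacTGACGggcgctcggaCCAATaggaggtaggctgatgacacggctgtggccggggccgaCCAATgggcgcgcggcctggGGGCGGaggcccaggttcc
Nup155: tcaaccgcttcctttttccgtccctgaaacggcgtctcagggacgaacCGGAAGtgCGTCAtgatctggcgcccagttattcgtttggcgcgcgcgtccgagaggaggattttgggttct
Tnpo2: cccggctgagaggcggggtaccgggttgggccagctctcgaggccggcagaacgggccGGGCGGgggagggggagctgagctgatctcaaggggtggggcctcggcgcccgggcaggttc
Xpo6: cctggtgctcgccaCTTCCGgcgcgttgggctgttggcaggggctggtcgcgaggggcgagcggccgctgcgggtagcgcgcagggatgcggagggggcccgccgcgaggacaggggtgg
The Xpo1 stretch held 2 CCAAT boxes, 1 GC box and 1 cyclic AMP response core. Nup155 held 1 ETS core and 1 cyclic AMP response core, Tnpo2 held 1 GC box, and Xpo6 held 1 ETS core.

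A window of 300 bases, from 250 before to 50 after the start, was matched for 44 of the 49 genes. Its median GC content was 62.0%, against 52.3% over 27457 promoters of the genome. Those 27457 were not limited to genes measured on the array or with signal in MLN. The 18 windows of genes lower in A than in D had a median of 58.0%, the 8 of higher genes 66.7%, and the 18 of genes that did not pass 63.5%. The CCAAT box stood in 47.7% of the 44 windows and in 37.7% of all promoters. The GC box stood in 63.6% and 34.9%, and the ETS core in 34.1% and 17.4%. The cyclic AMP response core stood in 45.5% and 22.0%, and the E-box in 15.9% and 6.65%. The TATA box (TATAAA) stood in 4.55% of the 44 windows and in 14.3% of all promoters. The GC box was found in 9 of the 18 windows of the lower genes and in 6 of the 8 of the higher genes. Among genes that did not pass it was found in 13 of the 18 windows. In the same order, the CCAAT box was found in 9, 3 and 9 windows, and the cyclic AMP response core in 9, 4 and 7. These are counts of letters in a window and were not tested.

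**Figure D3:**
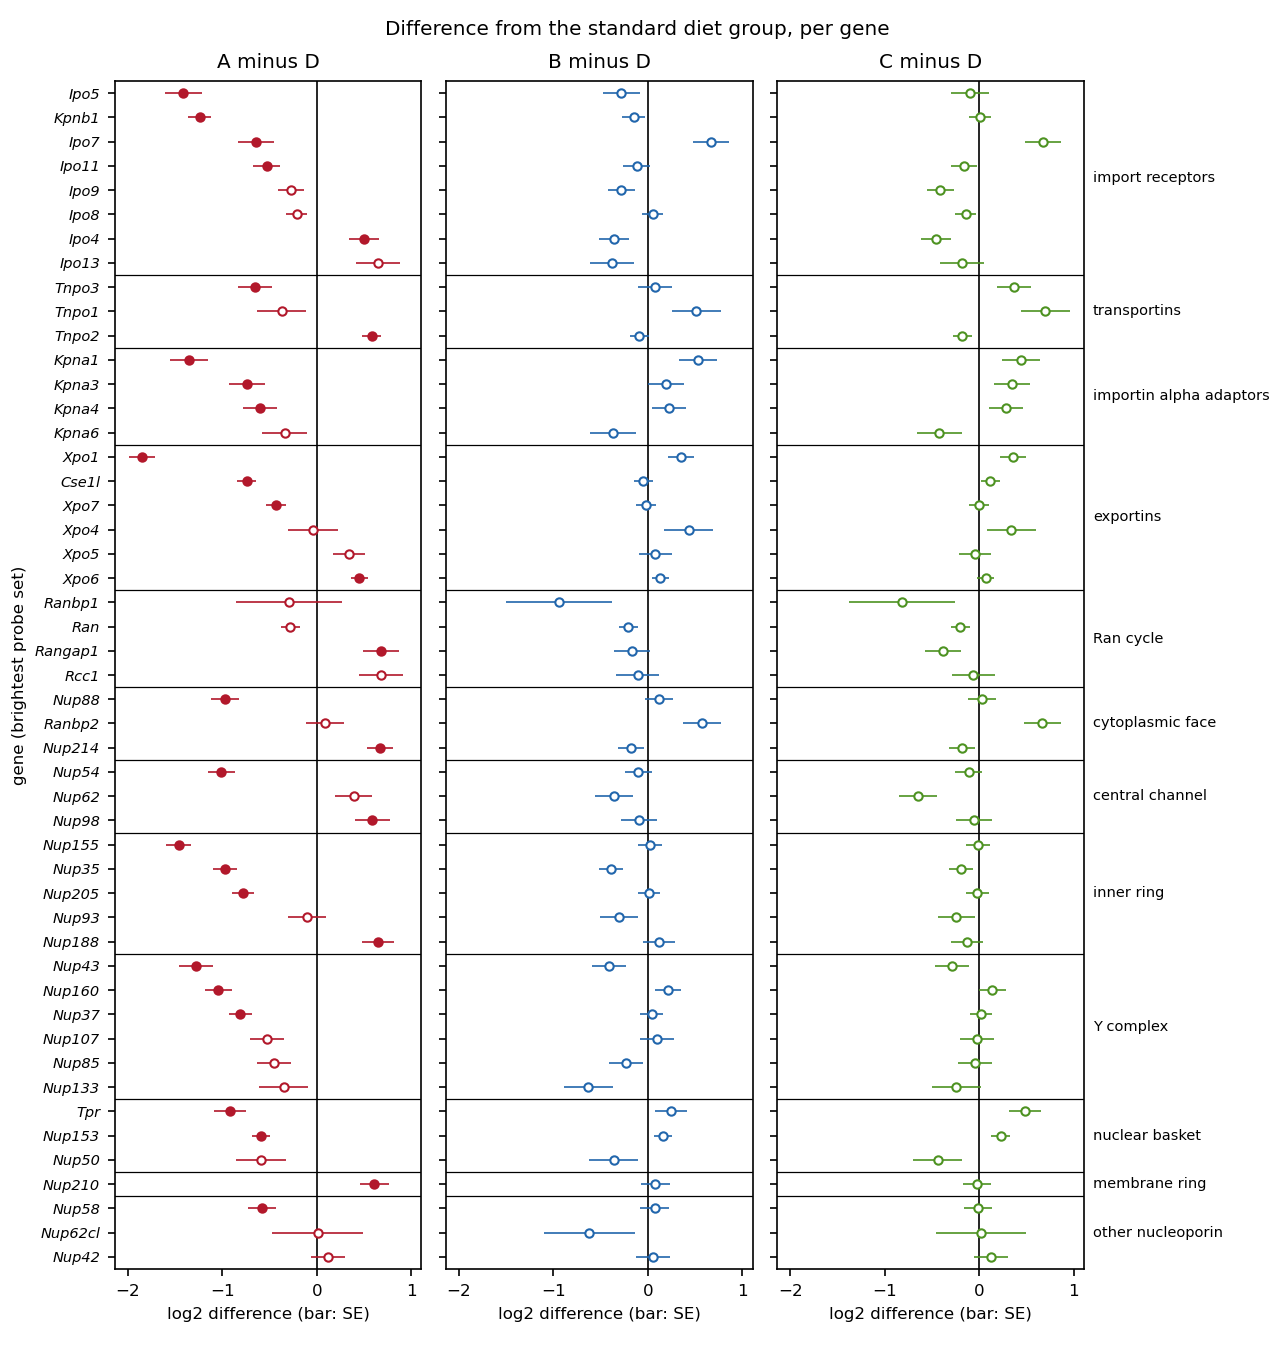
Log2 difference of A, B and C from group D for each of the 49 genes at its brightest probe set, ordered by role, with the standard error as a bar and filled points where the adjusted p was under 0.05. Filled points occur in the A panel alone, 22 to the left of 0 and 8 to the right (17 and 0 without normalization between arrays).

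The role of each gene is set beside its difference from D in that plot. Over all genes, 12.0% were lower in A than in D and 16.0% higher. A role holds few genes, so its count is a description, and a single higher gene is not read as a result. Import receptors, which bind cargo in the cytoplasm and release it to Ran in the nucleus, were lower in A than in D for 4 of 8 genes and higher for 1. Kpnb1 encodes importin beta 1, the receptor that works with the importin alpha adaptors. The log2 signal of Kpnb1 was 7.69, 7.31 and 7.62 in the A arrays, 8.69, 8.63 and 8.55 in B, 8.75, 8.70 and 8.91 in C, and 8.86, 8.77 and 8.70 in D. Every A array lay below every other array. C and D overlapped, and all B arrays lay just below both. The log2 difference of A from D was -1.24 (SE 0.12, adjusted p 2.51e-05, 2.36-fold lower), and from B it was -1.09 (SE 0.12, adjusted p 3.86e-05).

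Ipo5, an importin that carries ribosomal proteins and core histones, had log2 signals of 7.39, 6.69 and 6.75 in A, 8.0, 8.07 and 8.15 in B, 8.44, 8.18 and 8.17 in C, and 8.55, 8.57 and 7.96 in D. A replicate 1 was the highest of the A arrays and still below all the others, and D replicate 3 was the lowest of D. Ipo5 was 2.67-fold lower in A than in D (log2 difference -1.41, SE 0.20, adjusted p 0.00041). Ipo7, another importin for ribosomal proteins and histones, had log2 signals of 7.10, 7.28 and 7.48 in A, 8.59, 8.55 and 8.66 in B, 8.75, 8.42 and 8.66 in C, and 7.68, 7.69 and 8.42 in D. Here D replicates 1 and 2 lay between the A arrays and the gavaged groups. Ipo7 was 1.56-fold lower in A than in D (log2 difference -0.64, SE 0.19, adjusted p 0.0268) and 2.48-fold lower than in B (log2 difference -1.31, SE 0.19, adjusted p 0.000235).

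Ipo13, a receptor that can carry cargo in both directions, ran the other way. Its log2 signal was 7.19, 7.0 and 7.01 in A, 6.32, 6.07 and 5.70 in B, 5.83, 6.36 and 6.51 in C, and 6.67, 6.51 and 6.06 in D. All A arrays were above all others. The difference passed against B (log2 difference 1.04, SE 0.23, adjusted p 0.00376, 2.05-fold higher) and not against D (0.65, SE 0.23, adjusted p 0.0593). Ipo11 was lower in A than in D by a log2 difference of -0.53 and Ipo4, a histone importer, was higher by 0.50, with adjusted p of 0.0188 and 0.0393. Ipo8 and Ipo9 did not pass, with log2 differences of -0.21 and -0.27.

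Importin alpha adaptors recognise the classical nuclear localization signal and hand the cargo to importin beta 1. Of the 4 measured, 3 were lower in A than in D and none was higher. Kpna1 had log2 signals of 7.71, 7.57 and 7.91 in A, 9.72, 9.63 and 9.47 in B, 9.47, 9.66 and 9.41 in C, and 8.75, 8.81 and 9.68 in D. The A arrays were below the rest, and D replicate 3 was within the range of B while D replicates 1 and 2 were below B and C. Kpna1 was 2.54-fold lower in A than in D (log2 difference -1.35, SE 0.20, adjusted p 0.000621) and 3.67-fold lower than in B (-1.87, SE 0.20, adjusted p 3.89e-05). Kpna3 was lower by a log2 difference of -0.74 and Kpna4 by -0.60 (adjusted p 0.0163 and 0.0358 against D), the latter not without D replicate 3. Kpna6 did not pass, at -0.34. The probe set that carries both the symbols Kpna2 and Kpna2l1 was left out.

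Transportins split. Tnpo3, which imports splicing factors rich in serine and arginine, was lower in A than in D (log2 difference -0.65, SE 0.18, adjusted p 0.0218). Tnpo2, a receptor for RNA-binding proteins, was higher, with log2 signals of 8.51, 8.57 and 8.53 in A against 7.73 to 8.05 in the other 9 arrays and a log2 difference from D of 0.58 (SE 0.10, adjusted p 0.00138). Tnpo1, its close relative, did not pass against D (-0.37, adjusted p 0.379) and was lower in A than in B (-0.88, SE 0.26, adjusted p 0.0216). Its D arrays spread widely, from 7.92 in replicate 1 to 9.19 in replicate 3, and overlapped A.

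Exportins bind cargo together with Ran-GTP in the nucleus. Xpo1, or CRM1, the receptor for leucine-rich export signals and for ribosomal subunits, showed the largest difference of all 49 genes. Its log2 signal was 6.85, 6.79 and 7.0 in A, 9.14, 9.03 and 9.07 in B, 9.15, 8.98 and 9.14 in C, and 8.61, 8.52 and 9.07 in D. The A arrays lay more than 1 log2 unit below every other array, and D replicate 3 again lay with B and C. Xpo1 was 3.61-fold lower in A than in D (log2 difference -1.85, SE 0.14, adjusted p 4.08e-06) and 4.58-fold lower than in B (-2.20, SE 0.14, adjusted p 9.78e-07).

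Cse1l, the exportin that returns importin alpha to the cytoplasm, was lower in A than in D by a log2 difference of -0.74 (SE 0.10, adjusted p 0.000265), and Xpo7 by -0.43 (SE 0.11, adjusted p 0.0142). Xpo6, which exports actin, was higher by 0.45 (SE 0.09, adjusted p 0.00329), with log2 signals of 9.69, 9.86 and 9.86 in A and 9.32 to 9.55 elsewhere. Xpo5, the exporter of microRNA precursors, was at 0.34 (adjusted p 0.182), and Xpo4 was at -0.04 (adjusted p 0.949). Thus exportins gave 3 lower and 1 higher of 6 genes.

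Of the 4 genes of the Ran cycle, 0 passed as lower in A than in D and 1 as higher. Ran itself had log2 signals of 11.06, 10.85 and 10.95 in A, 10.98 to 11.09 in B, 10.99 to 11.09 in C, and 11.29, 11.35 and 11.05 in D. A overlapped B, C and D replicate 3, and only D replicates 1 and 2 stood higher. The log2 difference of A from D was -0.28 (SE 0.10, adjusted p 0.0801), and from B it was -0.07 (SE 0.10, adjusted p 0.672). Rangap1, which triggers GTP hydrolysis by Ran at the cytoplasmic side, had log2 signals of 8.97, 8.86 and 8.72 in A, 8.16, 7.72 and 8.13 in B, 7.70, 8.05 and 7.62 in C, and 8.42, 8.36 and 7.74 in D. All A arrays were the highest. Rangap1 was 1.6-fold higher in A than in D (log2 difference 0.68, SE 0.19, adjusted p 0.0237), a call that was lost without D replicate 3.

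Rcc1, the nucleotide exchange factor of Ran on chromatin, had log2 signals of 7.45, 7.12 and 7.22 in A, 6.53, 6.90 and 5.99 in B, 6.33, 6.40 and 6.85 in C, and 6.67, 6.73 and 6.35 in D. The A arrays were again the highest, and B spread over nearly 1 log2 unit. The log2 difference of A was 0.68 against D (SE 0.23, adjusted p 0.0506) and 0.79 against B (SE 0.23, adjusted p 0.0175). Ranbp1, a cofactor that promotes GTP hydrolysis, was at -0.29 against D (SE 0.56, adjusted p 0.781), and its B arrays ran from 2.82 to 5.63.

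**Figure D4:**
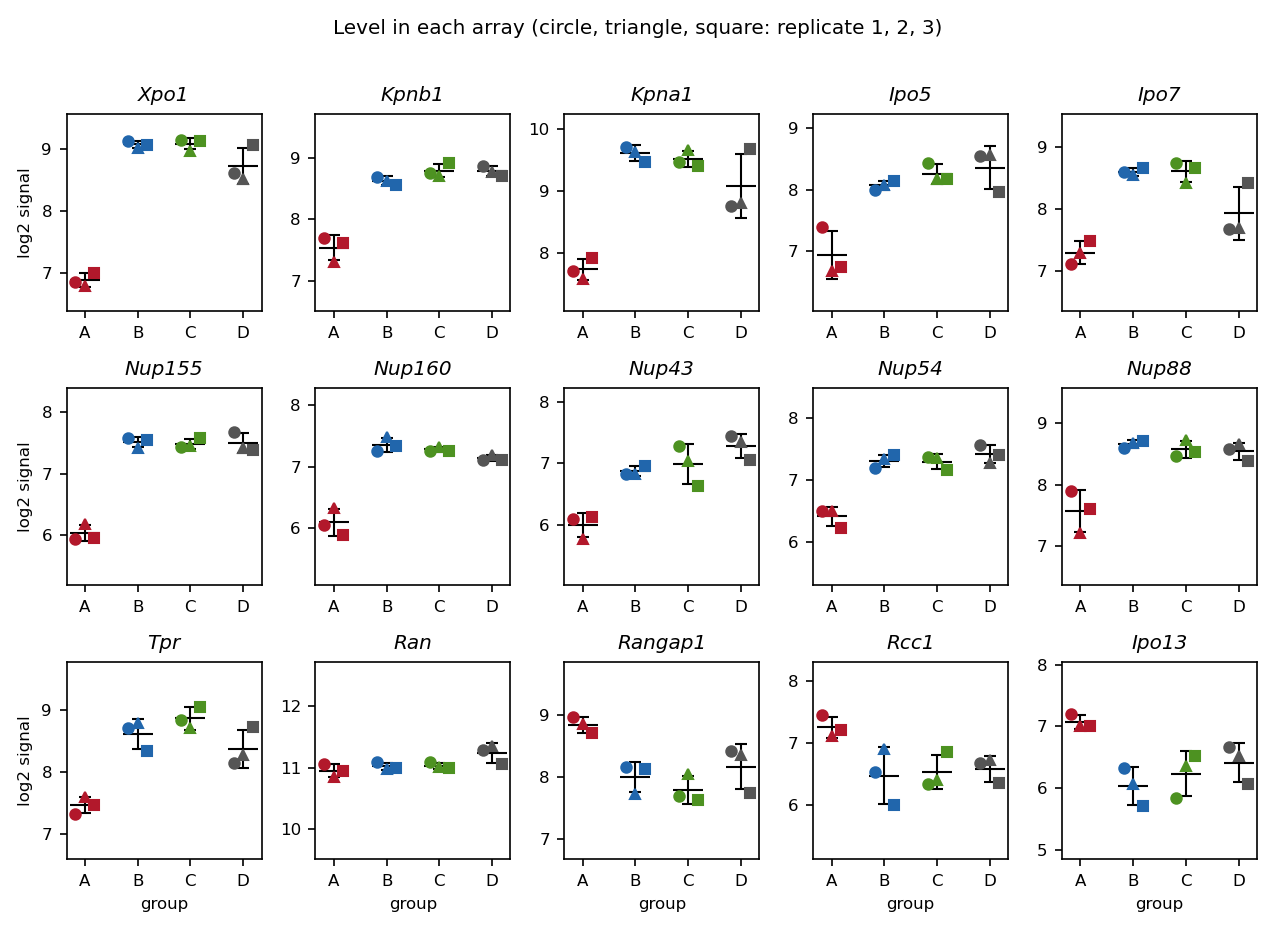
Quantile-normalized log2 signal of 15 genes in each of the 12 arrays, with circles, triangles and squares for replicates 1, 2 and 3, and a black line with a bar for the group mean and SD; each panel spans 3.2 log2 units. Group A lies below the other groups in the panels from Xpo1 to Tpr, overlaps them for Ran, and lies above them for Rangap1, Rcc1 and Ipo13.

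The panels of single genes show the same for the pore. The inner ring, which anchors the pore in the membrane, gave 3 lower (60.0%) and 1 higher (20.0%) of 5 genes in A against D. All genes gave 12.0% and 16.0%. Nup155, its link to the membrane, had log2 signals of 5.94, 6.18 and 5.96 in A, 7.57, 7.42 and 7.54 in B, 7.43, 7.45 and 7.57 in C, and 7.68, 7.42 and 7.38 in D. The 9 arrays outside A lay within 0.3 log2 units of each other, and A was below them all. Nup155 was 2.76-fold lower in A than in D (log2 difference -1.46, SE 0.13, adjusted p 1.4e-05) and 2.79-fold lower than in B (-1.48, SE 0.13, adjusted p 8.97e-06). Nup205 and Nup35 were lower by -0.78 and -0.97, while Nup188, a large scaffold protein related to Nup205, was higher by 0.65 (SE 0.17, adjusted p 0.0154). Nup93, which joins the ring to the central channel, did not pass, at -0.10.

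The Y complex forms the outer rings of the scaffold. None of its 6 genes was higher and 3 were lower. Nup160 had log2 signals of 6.05, 6.33 and 5.90 in A, 7.25, 7.48 and 7.33 in B, 7.25, 7.32 and 7.26 in C, and 7.11, 7.19 and 7.11 in D. The spread within B, C and D was small beside the gap to A. Nup160 was 2.06-fold lower in A than in D (log2 difference -1.04, SE 0.14, adjusted p 0.000226) and 2.39-fold lower than in B (-1.26, SE 0.14, adjusted p 3.76e-05). Nup43 had log2 signals of 6.10, 5.77 and 6.13 in A, 6.83, 6.83 and 6.96 in B, 7.28, 7.04 and 6.64 in C, and 7.44, 7.35 and 7.05 in D. A was lowest, and C replicate 3 was the lowest array outside A. Nup43 was 2.43-fold lower in A than in D (log2 difference -1.28, SE 0.18, adjusted p 0.0004). Nup37 was lower by -0.81 (adjusted p 0.00065), and Nup107, Nup85 and Nup133 were at -0.53, -0.45 and -0.35 without passing against D, though Nup107 passed against B (-0.63, adjusted p 0.0167).

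In the central channel, whose phenylalanine-glycine repeats form the barrier, genes moved in both directions. Nup54 had log2 signals of 6.50, 6.49 and 6.23 in A, 7.20, 7.34 and 7.40 in B, 7.38, 7.36 and 7.16 in C, and 7.56, 7.27 and 7.41 in D. Every A array was below the other 9, which overlapped. Nup54 was 2.01-fold lower in A than in D (log2 difference -1.01, SE 0.14, adjusted p 0.000284). Nup62, its partner, was at 0.39 against D (SE 0.20, adjusted p 0.2) and was higher in A than in B (0.75, SE 0.20, adjusted p 0.0118). Nup98 was higher against D by 0.59 (SE 0.19, adjusted p 0.0439), but A replicate 2 (7.96) lay within the D arrays (7.61 to 7.99). It was the single called gene whose A and D arrays overlapped, and it kept its call in 3 of the 12 fits that left out an array.

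At the cytoplasmic face, where exported cargo is released, Nup88 and Nup214 encode partners within a single subcomplex and differed in sign. Nup88 had log2 signals of 7.89, 7.22 and 7.60 in A, 8.60, 8.67 and 8.71 in B, 8.47, 8.72 and 8.53 in C, and 8.58, 8.66 and 8.38 in D. Nup88 was lower in A, by a log2 difference of -0.97 from D (SE 0.15, adjusted p 0.00086) and of -1.09 from B (SE 0.15, adjusted p 0.000235). Nup214 had log2 signals of 7.52, 7.52 and 7.27 in A against 6.46 to 6.82 in the other 9 arrays. The A arrays overlapped no other group for either gene, being lowest for Nup88 and highest for Nup214, while B, C and D overlapped. Nup214 was higher in A than in D by 0.67 (SE 0.14, adjusted p 0.00474). Ranbp2, the large filament protein, was at 0.09 in its brightest probe set (adjusted p 0.807).

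The nuclear basket holds the inner mouth of the pore. Tpr, which builds its filaments, had log2 signals of 7.32, 7.59 and 7.47 in A, 8.72, 8.79 and 8.35 in B, 8.84, 8.71 and 9.06 in C, and 8.14, 8.28 and 8.73 in D. A was lowest, D replicates 1 and 2 came next, and D replicate 3 lay with B and C. Tpr was lower in A than in D by a log2 difference of -0.92 (SE 0.17, adjusted p 0.00213) and lower than in B by -1.16 (SE 0.17, adjusted p 0.00029). Nup153 was lower by -0.59 against D (SE 0.10, adjusted p 0.0016), and Nup50 was at -0.59 with a wider error (SE 0.26, adjusted p 0.142). Nup210, a protein of the membrane ring, was higher in A by 0.61 (SE 0.15, adjusted p 0.0113), with all A arrays above all others. Of the nucleoporins that the lists used here gave no place in the pore, Nup58 was lower by -0.58 (adjusted p 0.0179). Nup42 and Nup62cl were at 0.12 and 0.01.

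**Figure D5:**
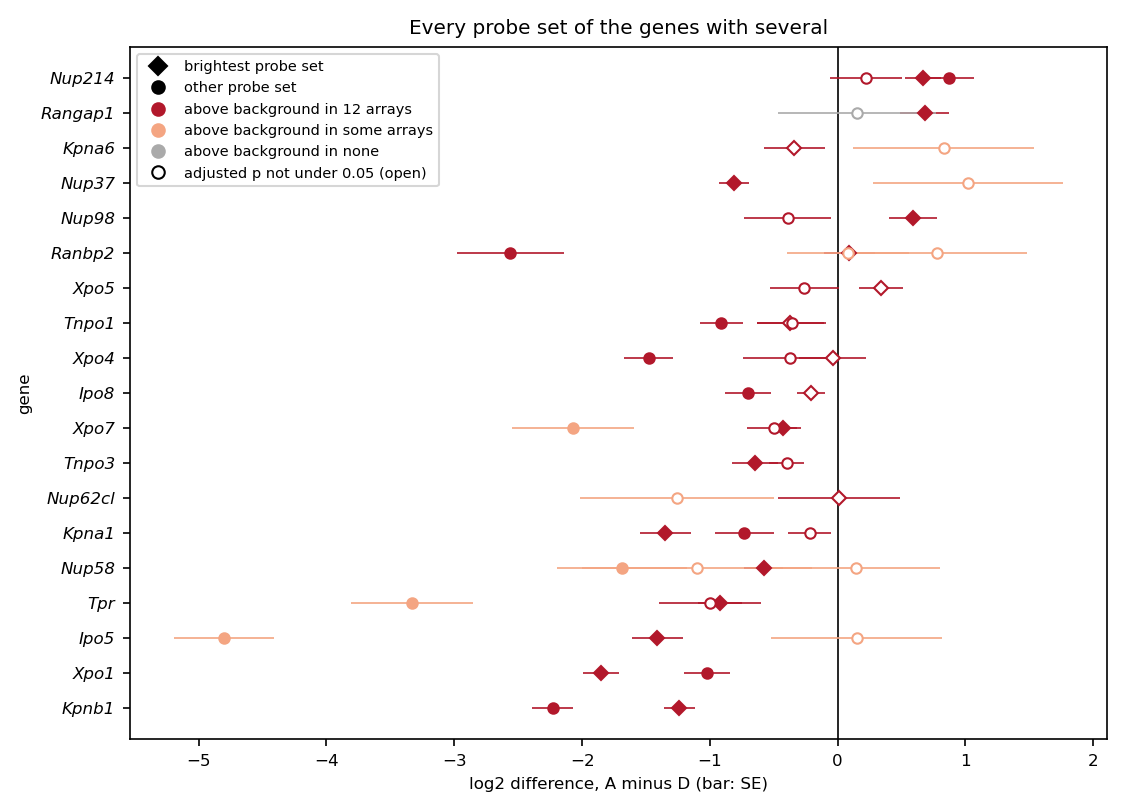
Log2 difference of A from D for every probe set of the 19 genes that have several, with the standard error as a bar; diamonds are the brightest probe sets, colours give the number of arrays above background, and filled points had an adjusted p under 0.05. No gene has filled points on both sides of 0, and those of Ranbp2, Xpo4, Tnpo1 and Ipo8 are not the brightest of their gene.

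The plot of all probe sets shows how far the choice of the brightest mattered. Over the 79 probe sets, 33 were lower in A than in D and 9 were higher, where all 31042 probe sets gave 10.2% lower and 10.1% higher. Of the 19 genes with several, 8 had 2 or more probe sets called in the same direction, 8 had 1 called, 3 had none (Xpo5, Kpna6 and Nup62cl), and 0 were called in both directions. The same split was not counted over all genes. Kpnb1 was lower by -2.23 in its dimmer probe set (adjusted p 2.77e-06) and Xpo1 by -1.02 (adjusted p 0.00155). Ranbp2 differed by probe set, with 0.09 in the brightest (1383172_at) and -2.56 in another (1375371_at, adjusted p 0.00106), whose group means of log2 signal were 4.22 in A, 7.98 in B, 8.03 in C and 6.78 in D. Xpo4 likewise was at -0.04 in the brightest and at -1.48 in another (adjusted p 0.000232).

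Some dim probe sets fell below background in group A, which allows a lower bound only. A bound sets the mean of the brighter group against the mean of the background limits of the arrays in the dimmer group. Ipo5 was at least 3.82-fold lower in A than in D in the probe set 1396742_at (adjusted p 8.01e-06), Tpr at least 2.61-fold lower in 1394814_at (adjusted p 0.000438) and Xpo7 at least 2.23-fold lower in 1397747_at (adjusted p 0.00907). What part of each transcript these probe sets read was not analysed here.

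Against D, the gavaged groups gave 0 called genes of 49 in B and 0 in C, in either direction. Over all genes the shares called were 0.0141% lower and 0.00703% higher for B, and 0.0352% lower and 0.00703% higher for C. At an unadjusted p under 0.05 in limma, 4 genes were lower and 4 higher in B, where all genes gave 10.5% and 6.47%. In C, 3 were lower and 6 higher, where all genes gave 12.2% and 7.42%, so these counts lay near the background. The median log2 difference was -0.02 for either group, and the median SE of a difference was 0.17. B and C differed from each other in 0 genes lower and 0 higher, with 0% of all genes in both directions. At an unadjusted p under 0.05 in limma the 49 genes again gave 0 in both directions, and all genes gave 1.93% and 1.96%. The log2 differences of B from C ran from -0.64 to 0.29. Groups B and C share the gavage in suckling and differ in CLA during gestation.

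D replicate 3 decided the comparisons of B and C with D. Without it, 3 genes were lower in B (Nup62, Ipo4 and Nup35) and 5 higher (Ranbp2, Xpo1, Ipo7, Kpna1 and Tnpo1), with 12.8% and 7.15% of all genes. In C, 3 were lower (Nup62, Ipo4 and Rangap1) and 6 higher (Ranbp2, Xpo1, Ipo7, Kpna1, Tpr and Tnpo1), with 15.0% and 8.04% of all genes. These few genes lay near the background shares, and nothing about the 49 genes is read from their number. Against the remaining D arrays, Ipo7 was higher by a log2 difference of 0.91 in B and 0.92 in C (adjusted p 0.0005 and 0.000428), Kpna1 by 0.83 and 0.73, Tnpo1 by 0.87 and 1.06, and Xpo1 by 0.51 and 0.52. Nup62 was lower by -0.60 and -0.89. Those D arrays are also the ones with the high smooth muscle markers.

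Other genes of the pathway were counted from lists. Among 19 further transport and pore genes, 6 were lower (31.6%) and 5 higher (26.3%) in A than in D. Over all genes the shares were 12.0% and 16.0%. Ahctf1, which seeds pores on chromatin, had the largest fall (log2 difference -1.37, SE 0.14, adjusted p 3.83e-05), and the tRNA exporter Xpot fell by 0.88 on the log2 scale (SE 0.17, adjusted p 0.00312). Pom121, a membrane nucleoporin, was higher by 0.94 (SE 0.11, adjusted p 0.000127), as was Rae1, an mRNA export factor, by 0.71. Nxf1, the main mRNA export receptor, was at 0.05 (adjusted p 0.886), and Nutf2, the importer of Ran, was at -0.31 (adjusted p 0.191). The median of this list was -0.18.

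Of 16 mRNA export genes, 5 were lower (31.2%) and 1 was higher (6.25%) in A than in D, with a median of -0.20. All genes gave 12.0% lower and 16.0% higher. Ncbp1, a subunit of the cap-binding complex, had log2 signals of 6.73, 6.51 and 6.48 in A and 8.12 to 8.48 in the other 9 arrays. The gap to A was wider than the whole range outside A. Its log2 difference from D was -1.69 (SE 0.12, adjusted p 2.59e-06). Sarnp, Thoc1 and Thoc7, of the complexes that prepare mRNA for export, were lower by -1.81, -1.44 and -0.70. Pcid2 was the 1 higher gene, at 0.54. Of 15 genes of the nuclear lamina and envelope, 2 were lower (Lbr at -0.65 and Syne1 at -0.49) and 5 were higher, among them Lmnb2 at 0.91 and Sun2 at 0.74. These shares were 13.3% and 33.3%, so the lower share was near that of all genes. The median was 0.23 there, near that of all genes (0.15), and it was -0.03 without D replicate 3.

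Proliferation genes gave 6 lower (33.3%) and 1 higher (5.56%) of 18 in A against D, where all genes gave 12.0% and 16.0%. Against B they gave 4 lower and 4 higher (22.2% each), where all genes gave 15.0% and 26.9%. Mki67, a marker of cycling cells, was lower by -0.84 (SE 0.14, adjusted p 0.00109), Pcna by -0.73 and Mcm6 by -1.02, while the mitotic kinase Plk1 was higher by 1.07 (SE 0.23, adjusted p 0.0062). The summed intensity of these markers was 3981 to 4867 in A and 4230 to 4641 in B, so that the ranges overlapped, and it was 5835 and 6031 in D replicates 1 and 2 and 4080 in D replicate 3. The summed intensity of the 49 genes was 11121 to 11729 in A, 13840 to 14290 in B, 14034 to 14316 in C and 13798 to 14176 in D.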

How the data were processed

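Total RNA from MLN of 12 pups, 3 in each of 4 groups, was hybridized to Affymetrix rat expression arrays. The authors deposited MAS5 signal intensity values on a linear scale, without a common scale between arrays (array medians 19.3 to 38.5). Here the 30 zeros took the smallest positive value (0.1), and log2 values were taken from the deposited intensities, quantile normalized over 12 arrays and raised to a linear floor of 1. The 57 control probe sets were left out and 31042 were tested. Probe sets with 1 symbol (20826) were named from the platform annotation, with symbols updated by gene number against RefSeq genes of GRCr8, and 436 with several were not named. A level counted as background up to the 95th percentile of the 27 spike-in probe sets that had no spike. Groups were compared with limma 3.58.1 in R 4.3.3 (2-sided, empirical Bayes with a trend, p adjusted by Benjamini-Hochberg over the whole array in each of 5 comparisons). An exact permutation test of 3 against 3 cannot go below 0.1, and the number of arrays limits precision. The fit was tested on simulated data. The genes, the lists and the tests were chosen with earlier results of these data known. Every gene was named, and values in each array were given for genes past an adjusted p of 0.05 and 2-fold in any comparison and for Ran, Kpnb1, Xpo1, Rcc1 and Rangap1. Per-array values of further genes were added after their values were seen. Replicate numbers did not pair the arrays (correlations of deviations -0.02 to 0.08). Alternatives tried were a floor of 32, no normalization between arrays, removal of the dimmest 40%, a shift to a common 75th percentile, no trend, 2 groups only, the mean of all probe sets of a gene, unadjusted p, a replicate block, each array left out and, chosen after seeing the data, the hexokinase ratio as a term.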

Additional observations from a re-analysis of the deposited data

How the results depend on the processing

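The direction of the 22 lower genes in A against D was kept under all alternatives except for Nup37, at a log2 difference of 0.11 with the mean of all its probe sets. Calls against D held under every alternative and with each array left out for 13 lower genes (Xpo1, Kpnb1, Kpna1, Ipo5, Cse1l, Nup155, Nup205, Nup35, Nup160, Nup43, Nup54, Nup88 and Tpr) and for 0 higher genes. The share of all genes that held in this way was not counted. Leaving out 1 array gave 18 to 23 lower and 4 to 9 higher genes, with 4 higher without A replicate 1 and 5 without D replicate 3. The shares of all genes in those fits were 9.12% to 13.4% lower and 8.97% to 16.5% higher. The higher genes numbered 0 as deposited, 5 with a floor of 32, 5 without a trend, 5 with the 2 groups only and 3 with the hexokinase ratio. The lower genes numbered 15 without a trend, 16 with the 2 groups only and 17 as deposited or with the hexokinase ratio. In the same order, 9.65%, 7.01%, 9.64% and 6.30% of all genes were lower. The median against D was -0.61 as deposited and -0.53 with the mean of all probe sets. For A against B, values as deposited gave 6 lower genes (all genes 6.06%) and a median of -0.02, and Ipo11 turned to 0.01. The hexokinase ratio gave 7 higher genes (all genes 20.1%). The median was -0.36 when centred on the 75th percentile and -0.45 with the mean of all probe sets. Leaving out 1 array gave 7 to 11 higher genes (all genes 21.0% to 31.5%) and a median of -0.47 to -0.38. Calls against B held under every alternative and with each array left out for 6 lower genes (Nup160, Xpo1, Ipo7, Kpna1, Nup155 and Tpr). They also held for 4 higher genes (Nup214, Ipo13, Ipo4 and Tnpo2). The share of all genes was not counted for these calls either. For B against D, the median was -0.58 as deposited (all genes -0.65) and -0.05 when centred on the 75th percentile. Unadjusted p gave 4 lower and 4 higher genes (all genes 10.5% and 6.47%). Leaving out 1 array gave 0 to 3 lower and 0 to 5 higher (all genes up to 12.8% and 7.15%). The median was then -0.05 to 0.00. For C against D, values as deposited gave 17 lower genes, where all genes gave 35.0%, so this count lay near the background. The median was then -0.70 (all genes -0.80). Unadjusted p gave 3 lower and 6 higher (all genes 12.2% and 7.42%). Leaving out 1 array gave 0 to 3 lower and 0 to 6 higher (all genes up to 15.0% and 8.04%). The median was then -0.11 to 0.03. In both of these comparisons the left-out array that gave any call was D replicate 3. For B against C the median was 0.10 as deposited. The replicate block, with numbers that share only a label, gave 22 lower and 8 higher genes for A against D, 24 and 11 against B, and 0 elsewhere, the same counts as without the block. All genes then gave 12.3% and 16.2% against D, and 15.3% and 27.2% against B. The cause of these changes was not tested.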
